A study of Homo sapiens with 20 samples.

Results

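MYCN and the MYC-MAX network are here a set of 10 named genes, MYCN, MYC, MAX, MXD1, MXD3, MXD4, MXI1, MNT, MGA and MLX. Members were matched by symbol to the transcript clusters (the array's unit for a gene) of a Clariom S human array. A cluster was found for 9 of the 10, out of 21448 clusters tested and 17709 with a gene symbol, and each of the 9 had 1 cluster. MXD4 was not analysed here.

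N-Myc (from MYCN) and c-Myc (from MYC) are transcription factors that bind E-boxes in DNA once paired with MAX, and then raise transcription of genes for ribosome production, nucleotide synthesis and cell division. MAX also pairs with MXD1, MXD3, MXI1, MNT and MGA, and these pairs sit on the same E-boxes and repress, the MXD proteins and MNT through the SIN3 corepressor and MGA through a polycomb complex. MLX pairs with MNT and MXD1 and, in the arm that senses sugar phosphates, with MondoA (gene MLXIP) and ChREBP (gene MLXIPL). In neuroblastoma, amplification of MYCN marks high-risk disease, and such tumours usually express little MYC.

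Every sample was made from BE(2)-C, an established line of human neuroblastoma cells with amplified MYCN. Cells were transfected for 48 h with lncNB1 siRNA-1, lncNB1 siRNA-2 or control siRNA, lncNB1 being a long noncoding RNA, and then given cycloheximide, which stops ribosomes where they are on an mRNA. RNA from heavy polysomes (mRNA with many ribosomes) and light polysomes (mRNA with few) was then hybridized with an input of 100 ng. Each fraction held 3 siRNA-1, 3 siRNA-2 and 4 control arrays, 20 in all. This is 1 cell line at 1 time, and how far lncNB1 itself was lowered was not analysed here. The labels do not say whether replicates were separate cultures, so p-values reflect only the spread among these arrays, which may be technical.

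Values are log2 signals after quantile normalization, which scales the arrays of a run to 1 common distribution. Every change within a fraction is thus one against the rest of the mRNAs in that fraction. The sources used here do not say if 1 run covered both fractions, and the heavy minus light differences depend on this. In such bulk RNA, fewer cells holding an mRNA and less of it per cell cannot be told apart. The array medians lay between 6.58 and 6.68. All 9 adrenergic neuroblast markers measured lay above the negative controls in all 20 arrays, as did 5 of 7 mesenchymal, 2 of 3 Schwann cell (SOX10 and S100B) and 2 of 5 epithelial markers (KRT8 and KRT19). The Schwann cell receptor ERBB3 and the epithelial cadherin CDH1 did so in 0 arrays. The part of these markers in the results was not tested. Replicate 1 showed a smaller contrast between the fractions. The slope of its heavy minus light difference on that of the other transfections was 0.585 for siRNA-1, 0.727 for siRNA-2 and 0.527 for control, against 0.9 to 1.38 in the other 7 transfections.

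MXD1 had the largest difference of the 9 members with siRNA-1, in both fractions. Its signal in heavy polysomes was 8.41, 8.97 and 8.83 with siRNA-1, 7.68, 7.50 and 7.59 with siRNA-2, and 7.23, 7.50, 7.48 and 7.47 with control. All 3 siRNA-1 arrays were above every other heavy array, and siRNA-2 overlapped control. In light polysomes it was 8.33, 8.34 and 8.22 with siRNA-1, 7.47, 7.42 and 7.26 with siRNA-2, and 7.03, 7.39, 7.30 and 7.22 with control, again with siRNA-1 apart from both other groups and siRNA-2 overlapping control.

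MXD1 thus rose with siRNA-1 by 1.32 in heavy polysomes (2.49-fold, SE 0.142, limma adjusted p = 0.000198) and by 1.07 in light polysomes (2.09-fold, SE 0.122, adjusted p = 7.65e-05). With siRNA-2 the difference from control was 0.17 in heavy polysomes (95% confidence interval -0.13 to 0.48, adjusted p = 0.856) and 0.15 in light polysomes (-0.11 to 0.41, adjusted p = 0.778). The difference between the siRNAs themselves passed, at 1.14 in heavy polysomes (SE 0.151, adjusted p = 0.000637) and 0.92 in light polysomes (SE 0.131, adjusted p = 0.000371). MXD1 also passed on the mean of both siRNAs, at 0.74 in heavy (adjusted p = 0.00944) and 0.61 in light polysomes (adjusted p = 0.00654). With the 6 knockdown arrays taken as 1 group, where the difference between the siRNAs adds to the spread, that call was lost (adjusted p = 0.431 in heavy and 0.37 in light polysomes). The light call on the mean was also lost without replicate 1 in every group (0.51, adjusted p = 0.0866).

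**Figure D1:**
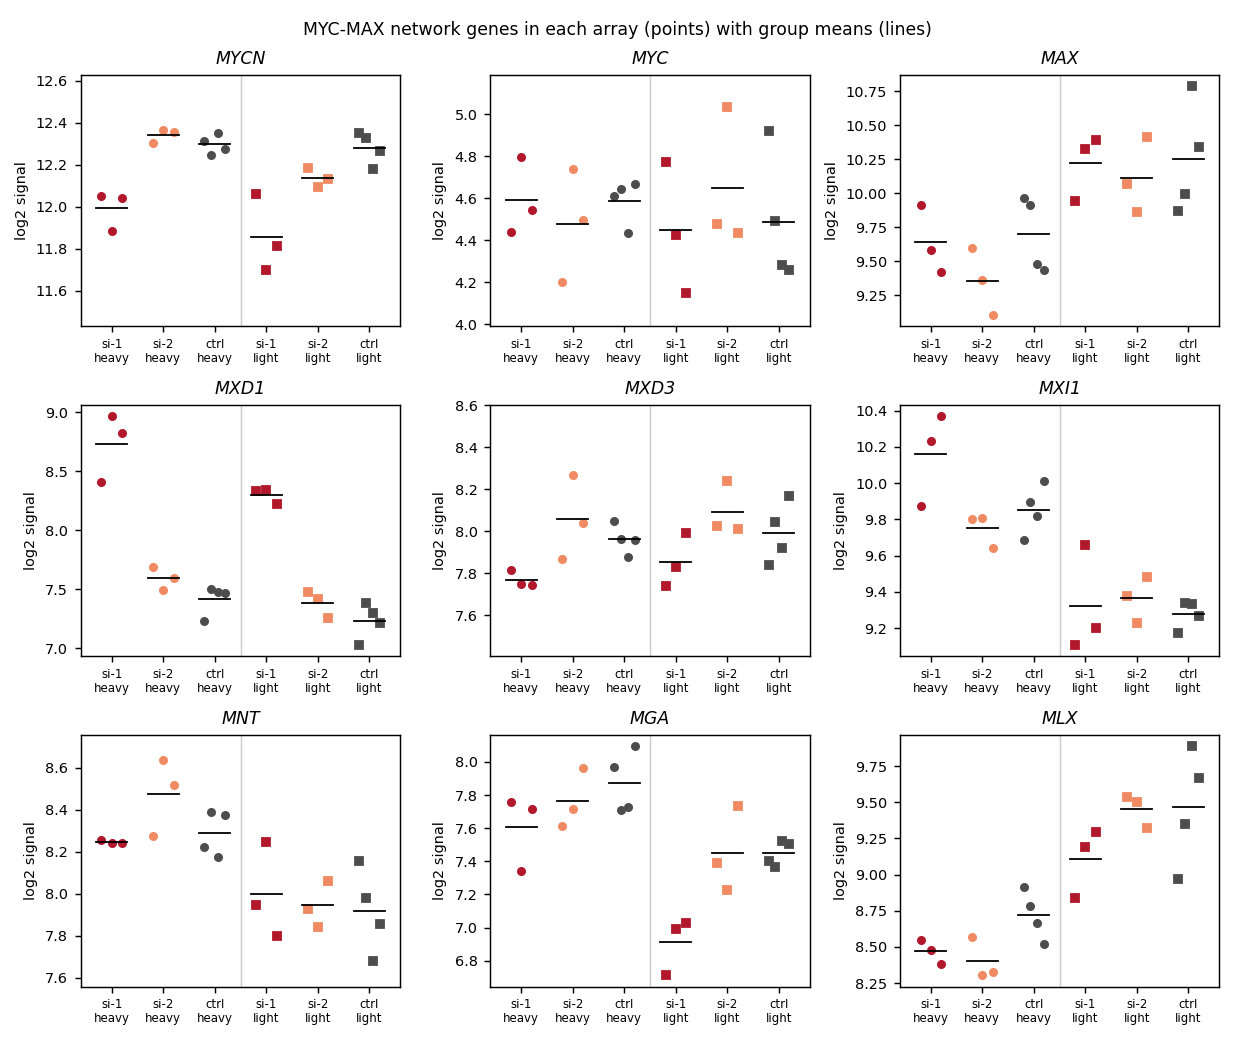
Log2 signal (y axis) of each measured network gene in every array (points, circles for heavy and squares for light polysomes) by group (x axis, si-1 and si-2 for the lncNB1 siRNAs, ctrl for control), with group means as lines and a separate y range per gene. MXD1 lies at 8.41 to 8.97 in the 3 heavy siRNA-1 arrays and at 7.23 to 7.50 in the heavy control arrays.

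MYCN, the amplified oncogene of this line, had a lower signal with siRNA-1 in both fractions, and the call was made in light polysomes only. In heavy polysomes its signal was 12.05, 11.88 and 12.04 with siRNA-1, 12.30, 12.36 and 12.35 with siRNA-2, and 12.31, 12.25, 12.35 and 12.28 with control. In light polysomes it was 12.06, 11.70 and 11.81 with siRNA-1, 12.18, 12.10 and 12.13 with siRNA-2, and 12.35, 12.33, 12.18 and 12.26 with control. In each fraction the 3 siRNA-1 arrays lay below all others, and siRNA-2 overlapped control.

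The MYCN difference between siRNA-1 and control was -0.43 in light polysomes (1.34-fold, SE 0.120, adjusted p = 0.0314), which passed. In heavy polysomes it was -0.31 (SE 0.104, 95% confidence interval -0.53 to -0.08, adjusted p = 0.0951), which did not. With siRNA-2 it was -0.14 in light (-0.40 to 0.11, adjusted p = 0.785) and 0.04 in heavy polysomes (-0.18 to 0.27, adjusted p = 0.97). The difference between siRNA-1 and siRNA-2 did not pass in either fraction, at -0.35 in heavy (adjusted p = 0.0731) and -0.28 in light polysomes (adjusted p = 0.189). The main fit thus did not show an effect particular to siRNA-1 for MYCN. With array weights the heavy difference between the siRNAs passed (-0.40, limma adjusted p = 0.0148). The light call was lost on leaving out siRNA-1 replicate 2 or 4, control replicate 1, 2 or 4, or replicate 1 of every group (adjusted p up to 0.145). Over all alternatives the difference stayed between -0.53 and -0.35.

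By group mean, MYCN ran from 11.86 ± 0.185 in light siRNA-1 arrays through 11.99 ± 0.0937 in heavy siRNA-1, 12.14 ± 0.0435 in light siRNA-2, 12.28 ± 0.0762 in light control and 12.30 ± 0.045 in heavy control arrays to 12.34 ± 0.0328 in heavy siRNA-2 arrays (SD, n = 3 per siRNA and 4 per control group). The 2 siRNA-1 groups overlapped each other, and so did both control groups and heavy siRNA-2. Among clusters with 1 gene symbol and a mean above the median, those whose signal ran closest to MYCN over the 20 arrays were INSM2 (Pearson r = 0.942), a zinc finger gene, CHAF1A (0.93), a subunit of chromatin assembly factor 1, the transcription factor gene MYB (0.922), SYNPO2 (0.92), which codes for an actin-binding protein, and WDR62 (0.909), a spindle pole gene. These correlations are descriptions, since the arrays share siRNAs and fractions.

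MGA, the largest protein of the network and part of a repressive polycomb complex, fell with siRNA-1 in light polysomes. Its light signal was 6.71, 6.99 and 7.03 with siRNA-1, 7.39, 7.23 and 7.73 with siRNA-2, and 7.40, 7.37, 7.52 and 7.50 with control. All siRNA-1 arrays were below all others. The difference from control was -0.54 (1.45-fold, SE 0.138, adjusted p = 0.0185), and that between siRNA-1 and siRNA-2 was -0.54 (SE 0.148, adjusted p = 0.0256). Both were lost without siRNA-1 replicate 1 and without replicate 1 in every group, the difference from control also without control replicate 4 (adjusted p up to 0.149) and that between the siRNAs also without siRNA-2 replicate 1 or 3 (up to 0.174). In heavy polysomes MGA was 7.76, 7.34 and 7.71 with siRNA-1, 7.61, 7.72 and 7.97 with siRNA-2, and 7.97, 7.71, 7.73 and 8.09 with control, and the groups overlapped (siRNA-1 minus control -0.27, adjusted p = 0.334).

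In all, 1 of 9 measured members passed with siRNA-1 in heavy polysomes, MXD1, where 8.91% of all clusters passed (5.68% higher and 3.23% lower). In light polysomes 3 of 9 passed with siRNA-1, MXD1 higher and MYCN and MGA lower, where 11.6% of all clusters passed (5.27% higher and 6.32% lower). With siRNA-2, 0 of 9 passed in heavy polysomes (limma; 1 of 9, MLX, had an unadjusted p under 0.05), where 0.415% of clusters passed (0.168% higher and 0.247% lower). In light polysomes with siRNA-2, 0 of 9 passed and 0 had an unadjusted p under 0.05, where 0.41% of clusters passed (0.191% higher and 0.219% lower). Between siRNA-1 and siRNA-2, 1 of 9 passed in heavy polysomes, where 8.75% of clusters did, and 2 of 9 in light polysomes, where 12.3% did. On the mean of both siRNAs MXD1 alone passed, where 1.62% of clusters passed in heavy and 2.95% in light polysomes. The median difference of the 9 members was -0.06 with siRNA-1 in heavy and -0.04 in light polysomes, beside 0.0008 and 0.0019 over all clusters.

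**Figure D2:**
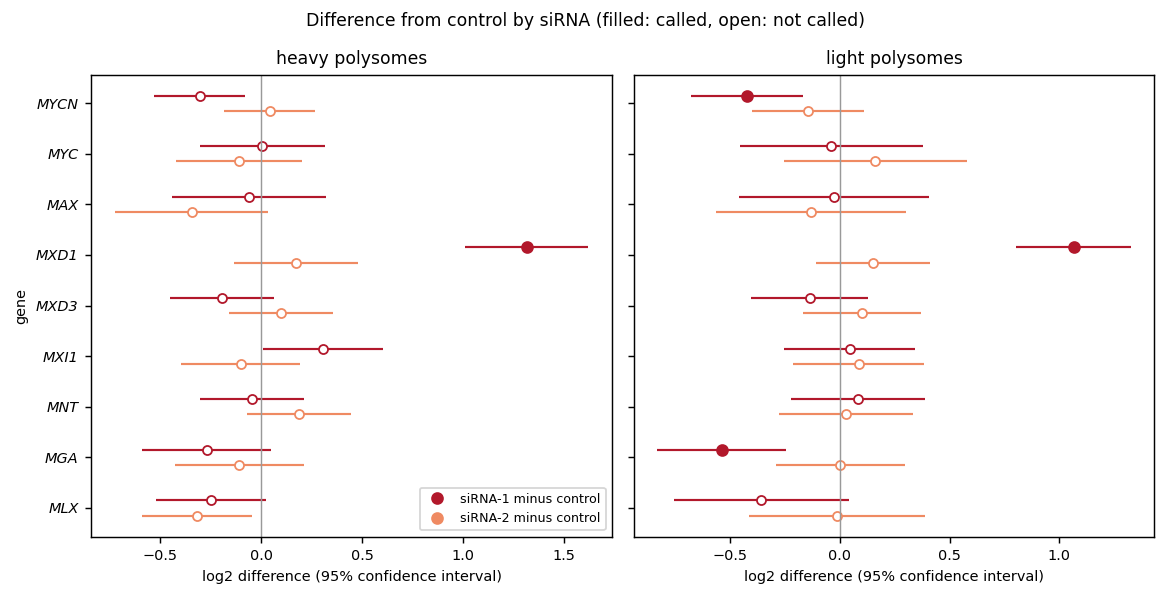
Difference from control on the log2 scale (x axis) of each measured network gene (y axis) for siRNA-1 and siRNA-2 in heavy (left) and light (right) polysomes, with 95% confidence intervals. Filled points passed at an adjusted p under 0.05: MXD1 at 1.32 and 1.07, MYCN at -0.43 and MGA at -0.54, all of them siRNA-1.

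MYC, the paralogue of MYCN, was at the level of the array's background. Its signal lay between 4.15 and 5.03 and was above the 95th percentile of the 612 negative control probe sets, which was 4.48 to 5.23 by array, in 4 of 20 arrays. The other 8 measured members were above it in 20 of 20 arrays. No difference in MYC can be read at this signal.

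MAX, the partner of every other protein of the MYC and MXD branches, overlapped between knockdown and control in both fractions. Its heavy signal was 9.91, 9.58 and 9.42 with siRNA-1, 9.60, 9.36 and 9.11 with siRNA-2, and 9.96, 9.92, 9.48 and 9.44 with control. The difference from control was -0.06 with siRNA-1 (95% confidence interval -0.44 to 0.32) and -0.35 with siRNA-2 (-0.73 to 0.03, adjusted p = 0.648). In light polysomes the differences were -0.03 (-0.46 to 0.41) and -0.13 (-0.57 to 0.30). The intervals are wide enough to hold changes of the size seen for MYCN.

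MLX, the partner shared with the MondoA arm, had lower means with both siRNAs in heavy polysomes, and neither difference passed. Its heavy signal was 8.55, 8.48 and 8.38 with siRNA-1, 8.57, 8.31 and 8.33 with siRNA-2, and 8.91, 8.78, 8.66 and 8.52 with control. Control replicate 4 lay among the knockdown arrays. The difference was -0.25 with siRNA-1 (-0.52 to 0.02, adjusted p = 0.289) and -0.32 with siRNA-2 (-0.59 to -0.04, adjusted p = 0.459). In light polysomes it was -0.36 (-0.76 to 0.04, adjusted p = 0.274) with siRNA-1 and -0.01 (-0.41 to 0.39) with siRNA-2.

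Among the other repressors, MXI1, a relative of MXD1, had a heavy signal of 9.87, 10.23 and 10.37 with siRNA-1, 9.80, 9.81 and 9.64 with siRNA-2, and 9.69, 9.89, 9.82 and 10.01 with control. Replicates 2 and 4 of siRNA-1 exceeded all other heavy arrays, and replicate 1 did not. The difference was 0.31 with siRNA-1 (0.01 to 0.60, adjusted p = 0.216) and -0.10 with siRNA-2 (-0.40 to 0.19). Between siRNA-1 and siRNA-2 it was 0.41 (adjusted p = 0.111), and 0.55 without siRNA-1 replicate 1, where it passed (adjusted p = 0.0294). MXD3, the MXD member linked to dividing cells, lay at 7.74 to 7.81 in heavy siRNA-1 arrays, 7.87 to 8.27 in siRNA-2 and 7.88 to 8.05 in control arrays, and the siRNA-1 arrays were below all others. The difference from control was -0.19 with siRNA-1 (-0.45 to 0.06, adjusted p = 0.397). MNT, the broadly expressed repressor that balances MYC, lay at 8.24 to 8.26 in heavy siRNA-1 arrays, 8.28 to 8.64 in siRNA-2 and 8.17 to 8.39 in control arrays. In light polysomes the siRNA-1 difference was 0.04 for MXI1, -0.14 for MXD3 and 0.08 for MNT, and none passed.

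The heavy minus light difference of an mRNA describes how its signal was placed between the fractions, relative to other mRNAs. It was taken within each of 10 transfections, meaning the heavy and the light array that share a siRNA and a number, although the labels do not state that these came from 1 gradient. In control cells 4 of 9 members passed, where 27.3% of all clusters did. With siRNA-1 4 of 9 passed, where 28.2% did, and with siRNA-2 3 of 9, where 22% did.

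MLX lay on the light side. Its heavy minus light difference was -0.29, -0.71 and -0.92 with siRNA-1, -0.97, -1.199 and -0.99 with siRNA-2, and -0.05, -0.57, -1.22 and -1.15 with control. All 10 transfections were negative, and control replicate 1 was nearest to 0. The means were -0.64 with siRNA-1 (SE 0.196, adjusted p = 0.024), -1.05 with siRNA-2 (SE 0.196, adjusted p = 0.00184) and -0.75 with control (SE 0.170, adjusted p = 0.00391). The siRNA-1 call was lost without siRNA-1 replicate 2 or 4 (adjusted p up to 0.18).

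MAX had mostly negative differences, with more spread. It had -0.03, -0.74 and -0.97 with siRNA-1, -0.47, -0.50 and -1.31 with siRNA-2, and 0.09, -0.07, -1.31 and -0.90 with control. Replicate 1 was nearest to 0 with either siRNA, and control replicates 1 and 2 were near 0. The mean passed with siRNA-2 (-0.76, SE 0.253, adjusted p = 0.0433). It did not pass with siRNA-1 (-0.58, SE 0.253, adjusted p = 0.104) or control (-0.55, SE 0.219, adjusted p = 0.0798). The siRNA-2 call was lost without any 1 of its 3 transfections or without siRNA-1 replicate 2 (adjusted p up to 0.348). Without replicate 1 in every group MAX passed in siRNA-1 cells (-0.86, adjusted p = 0.0232) and in control cells (-0.76, adjusted p = 0.013), and it passed in both when the arrays were not paired (adjusted p = 0.0473 for the siRNA-1 mean and 0.0305 for the control mean).

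MXI1 and MGA lay on the heavy side. MXI1 had 0.77, 0.58 and 1.17 with siRNA-1, 0.42, 0.58 and 0.16 with siRNA-2, and 0.51, 0.55, 0.49 and 0.75 with control, all above 0. It passed with siRNA-1 (0.84, SE 0.140, adjusted p = 0.000624) and control (0.58, SE 0.121, adjusted p = 0.00248) but missed the threshold in siRNA-2 cells (0.39, adjusted p = 0.0618). MGA had 1.05, 0.35 and 0.69 with siRNA-1, 0.22, 0.49 and 0.23 with siRNA-2, and 0.56, 0.34, 0.21 and 0.59 with control, also all above 0.

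For MGA the mean passed with siRNA-1 (0.69, SE 0.146, adjusted p = 0.00267) and control (0.42, SE 0.126, adjusted p = 0.0202), and not with siRNA-2 (0.31, adjusted p = 0.15). The control call was lost on leaving out its replicate 1 or 4 (up to 0.112 after adjustment). MNT passed with siRNA-2 (0.53, SE 0.142, adjusted p = 0.0144) and control (0.37, SE 0.123, adjusted p = 0.0347), and not with siRNA-1 (0.25, adjusted p = 0.221). It lost the siRNA-2 call without siRNA-2 replicate 2 or 3 (up to 0.154 after adjustment). It lost the control call without control replicate 2, 3 or 4, and after repeated quantile normalization (up to 0.158). MXD1 passed with siRNA-1 only (0.44, SE 0.133, adjusted p = 0.0233), and its difference in control cells was 0.19 (adjusted p = 0.271). That siRNA-1 call was lost without siRNA-1 replicate 2 or 4, and after repeated quantile normalization (adjusted p up to 0.172).

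MYCN had no called difference between the fractions. It had -0.01, 0.19 and 0.23 with siRNA-1, 0.12, 0.27 and 0.22 with siRNA-2, and -0.04, -0.08, 0.17 and 0.01 with control. The means were 0.14 (95% confidence interval -0.12 to 0.39), 0.20 (-0.05 to 0.46) and 0.02 (-0.20 to 0.24), and none passed.

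**Figure D3:**
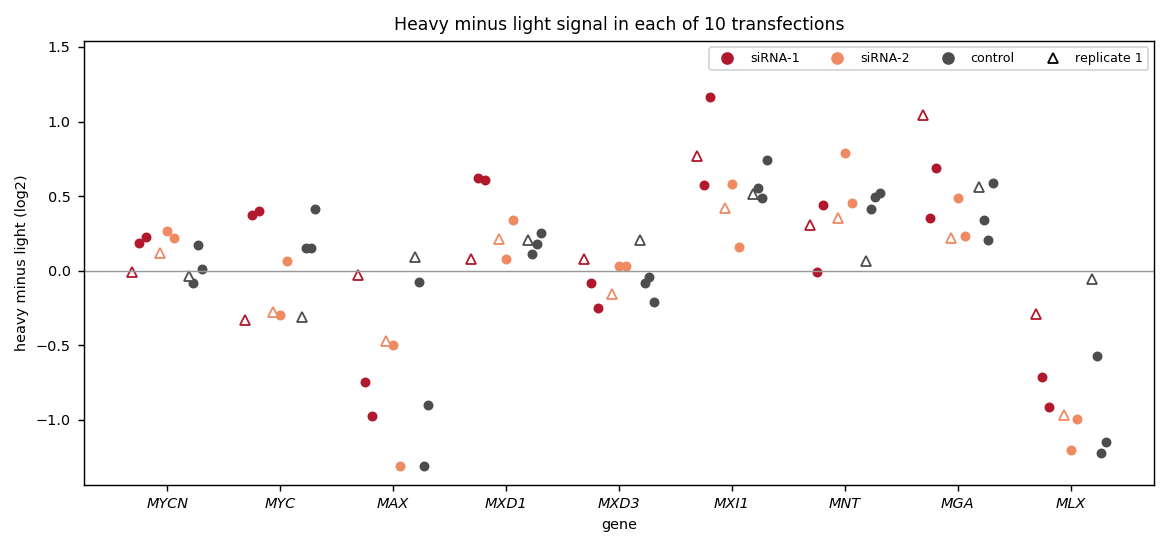
Heavy minus light log2 signal (y axis) of each measured network gene (x axis) in each of the 10 transfections, with replicate 1 as open triangles. MLX lies below 0 and MXI1 and MGA above 0 in all 10, and MAX spreads from -1.31 to 0.09.

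Whether the knockdown moved a member between the fractions was asked by the difference of these differences, the heavy-to-light shift. With siRNA-1, with siRNA-2 and on the mean of both, 0 of 9 members passed (limma) and 0 of 9 had an unadjusted p under 0.05, where 0% of all clusters passed in each of the 3 comparisons (1206, 542 and 614 clusters had an unadjusted p under 0.05). For MYCN the mean shift was 0.15 (95% confidence interval -0.13 to 0.44), and for MXD1 it was 0.14 (-0.18 to 0.45). These intervals do not hold a change of 1 on the log2 scale, and they do hold smaller shifts in either direction. The largest siRNA-1 shifts were 0.27 for MGA, 0.26 for MXI1 and 0.25 for MXD1, each with an adjusted p of 0.927.

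The MondoA and MLX target list held 2 genes, TXNIP and ARRDC4. It was chosen with earlier results of these data known, so its counts are descriptions. Both genes rose with siRNA-1, as MXD1 did, where 5.68% of all clusters rose in heavy and 5.27% in light polysomes. With siRNA-2, where MXD1 did not pass, 1 of 2 rose in heavy and 2 of 2 in light polysomes. Of all clusters, 0.168% rose in heavy and 0.191% in light polysomes with siRNA-2. TXNIP codes for a thioredoxin-binding protein that limits glucose uptake, and ARRDC4 for a related alpha-arrestin. TXNIP in heavy polysomes was 9.39, 9.43 and 8.97 with siRNA-1, 9.03, 9.20 and 9.07 with siRNA-2, and 7.89, 8.001, 8.20 and 8.11 with control. With either siRNA all arrays stood above control. In heavy polysomes TXNIP rose by 1.22 under siRNA-1 (adjusted p = 0.000252) and by 1.05 under siRNA-2 (0.00533). In light polysomes it rose by 1.29 with siRNA-1 (2.36e-05) and by 0.81 with siRNA-2 (0.013).

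ARRDC4 in light polysomes was 7.39, 8.005 and 7.48 with siRNA-1, 7.10, 6.92 and 7.34 with siRNA-2, and 6.35, 6.20, 6.37 and 6.22 with control. Both siRNA groups stood above control, by 1.34 under siRNA-1 (adjusted p = 8.03e-05) and by 0.83 under siRNA-2 (0.0281). In heavy polysomes it rose by 1.497 with siRNA-1 (adjusted p = 1.86e-05). The heavy siRNA-2 arrays, at 7.17, 7.33 and 7.13, also lay above control, at 6.74, 6.91, 7.003 and 7.01. That siRNA-2 difference of 0.29 did not pass. The partners of MLX in this arm, MLXIP and MLXIPL, did not pass with either siRNA in either fraction (limma; 1 of 2 had an unadjusted p under 0.05 with siRNA-2 in light polysomes and 0 of 2 elsewhere). MLXIP was at 8.31, 8.08 and 8.08 with siRNA-1, 7.93, 8.22 and 7.88 with siRNA-2, and 7.85, 8.25, 7.76 and 7.84 with control in heavy polysomes, and the groups overlapped. In light polysomes its siRNA-2 difference was 0.54 (adjusted p = 0.474). MLXIPL differed by -0.12 with siRNA-1 in light (adjusted p = 0.684) and 0.12 with siRNA-2 in heavy polysomes (0.866).

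The start regions of MXD1, TXNIP and ARRDC4 are shown because these 3 genes of the network and its MLX arm rose by over 1 on the log2 scale with siRNA-1 in both fractions. They are RefSeq windows of 300 bases on GRCh38.p14 (250 before and 50 after the annotated start), read 5′ to 3′ along the gene. Capitals mark an E-box, CACGTG, which reads the same on both strands, or a pair of E-box-like sites, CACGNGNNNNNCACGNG on either strand, the form of the carbohydrate response element bound by MondoA and MLX. The paired form can contain an E-box. It was searched with the TXNIP window in view, and a match is a description of letters only.
MXD1, chr2:69914859-69915158, plus strand: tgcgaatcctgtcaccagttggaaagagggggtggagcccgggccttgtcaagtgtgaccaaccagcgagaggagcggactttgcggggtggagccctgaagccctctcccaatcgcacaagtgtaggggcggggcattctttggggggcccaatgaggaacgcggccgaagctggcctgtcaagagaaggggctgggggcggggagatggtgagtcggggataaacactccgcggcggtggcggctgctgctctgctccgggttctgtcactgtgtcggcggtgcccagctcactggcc
TXNIP, chr1:145996530-145996829, minus strand: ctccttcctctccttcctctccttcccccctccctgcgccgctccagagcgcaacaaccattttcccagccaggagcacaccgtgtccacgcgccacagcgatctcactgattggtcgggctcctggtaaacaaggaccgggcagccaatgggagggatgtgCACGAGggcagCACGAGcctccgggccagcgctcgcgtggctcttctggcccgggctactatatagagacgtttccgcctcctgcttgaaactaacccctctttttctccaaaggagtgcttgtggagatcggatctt
ARRDC4, chr15:97960453-97960752, plus strand: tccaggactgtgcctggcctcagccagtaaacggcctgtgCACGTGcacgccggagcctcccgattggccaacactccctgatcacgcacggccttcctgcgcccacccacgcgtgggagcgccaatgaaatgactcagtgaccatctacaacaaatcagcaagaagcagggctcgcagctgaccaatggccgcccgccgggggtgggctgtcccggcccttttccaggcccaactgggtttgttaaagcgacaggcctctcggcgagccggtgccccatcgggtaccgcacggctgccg
The TXNIP window, 1 of 2 listed for that gene, held the paired sites, which were found in 20 of all 35116 windows (0.057%). The ARRDC4 window held an E-box, as did 7.26% of all windows, and the MXD1 window held neither. Of the 9 members with a window, MXD4, MNT and MLX held an E-box and 0 held the paired form.

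Among genes that MYC proteins induce for the nucleolus and growth, those that passed with siRNA-1 all fell. Of 48 measured of 57 listed, 5 fell and 0 rose in heavy polysomes, where 3.23% of all clusters fell, and 14 fell and 0 rose in light polysomes, where 6.32% did. The list's median difference was -0.21 in each fraction, beside 0.0008 over all clusters in heavy and 0.0019 in light polysomes. In heavy polysomes NOLC1, a nucleolar chaperone, fell by 0.76 (adjusted p = 0.0439), TMEM97, a sterol-regulated membrane protein, by 0.69 (0.0447), MRTO4, a ribosome assembly factor, by 0.63 (0.00514) and the nucleoside transporter SLC29A2 by 0.62 (0.0101). In light polysomes the DNA repair glycosylase UNG fell by 0.97 (adjusted p = 0.00105), the centriole kinase PLK4 by 0.96 (0.000179), the coactivator PPRC1 by 0.80 (0.00069) and the complex I assembly factor NDUFAF4 by 0.68 (0.015). Several of the 14 are better known for DNA replication and division than for the nucleolus, namely UNG, PLK4, PLK1, MCM4 and MCM5, the last 3 named after their values were seen.

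With siRNA-2, 0.415% of all clusters passed in heavy and 0.41% in light polysomes. Of the same 48 genes, 0 passed in either fraction by limma, with medians of -0.01 in heavy and 0.01 in light polysomes. An unadjusted p under 0.05 was found for 2 of them in heavy and 1 in light polysomes, all lower. The smallest p was that of TFB2M, a mitochondrial transcription factor gene, in heavy polysomes (-0.41, adjusted p = 0.322) and of SLC29A2 in light polysomes (-0.34, adjusted p = 0.359). The 2 siRNAs share their control arrays.

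Of 22 measured of 27 listed genes that N-Myc induces in neuroblastoma, siRNA-1 lowered 2 and raised 1 in heavy polysomes, where 3.23% of all clusters fell and 5.68% rose. It lowered 4 and raised 0 in light polysomes, where 6.32% fell and 5.27% rose. The medians were -0.14 in heavy and -0.19 in light polysomes. TWIST1, a transcription factor of the neural crest, fell by 0.62 in heavy (adjusted p = 0.0293) and 0.60 in light polysomes (0.00615). MTHFD2, a mitochondrial folate enzyme, fell by 0.60 (0.0451) and 0.55 (0.00706). LIN28B, which blocks let-7 processing, rose by 0.72 in heavy polysomes (0.012). The cyclin-dependent kinase subunit gene CKS1B fell by 0.64 (0.00919) and the drug transporter gene ABCC4 by 0.46 (0.0395) in light polysomes. With siRNA-2, SHMT2, a mitochondrial serine enzyme, rose by 0.63 in light polysomes (0.0275) and no other member passed (limma; 5 of 22 in heavy and 6 of 22 in light polysomes had an unadjusted p under 0.05, as had 1852 and 2102 of all 21448 clusters). The smallest heavy p was that of the mitochondrial peroxidase gene PRDX3, at -0.80 (adjusted p = 0.149). Of all clusters, 0.415% passed with siRNA-2 in heavy and 0.41% in light polysomes.

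Of 15 measured of 19 listed genes that MYC or N-Myc represses, siRNA-1 raised 1 and lowered 1 in heavy polysomes and raised 1 and lowered 2 in light polysomes, and siRNA-2 raised 1 and lowered 1 in each fraction. Of all clusters, siRNA-1 raised 5.68% and lowered 3.23% in heavy and raised 5.27% and lowered 6.32% in light polysomes, and siRNA-2 raised 0.168% and lowered 0.247% in heavy and raised 0.191% and lowered 0.219% in light polysomes. The siRNA-1 medians were -0.04 in heavy and -0.03 in light polysomes. The cell cycle inhibitor CDKN1A had a heavy signal of 6.45, 6.46 and 6.25 with siRNA-1, 8.05, 7.81 and 7.37 with siRNA-2, and 7.15, 6.71, 6.63 and 6.34 with control. It rose with siRNA-2 by 1.04 in heavy (adjusted p = 0.0332) and 1.58 in light polysomes (adjusted p = 0.00495), where all 3 siRNA-2 arrays stood above the rest. DKK1, a secreted Wnt inhibitor, fell with siRNA-1 by 1.199 in heavy (adjusted p = 0.000747) and 1.03 in light polysomes (0.000304). It also fell with siRNA-2, by 1.28 in heavy (0.00493) and 1.32 in light polysomes (0.000548). DKK3, its relative, rose with siRNA-1 by 0.95 in heavy (0.00147) and 0.70 in light polysomes (0.0106), and the growth arrest gene GADD45A fell by 0.44 in light polysomes (0.048).

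Among 30 measured of 33 listed genes that act on the stability of MYC proteins, siRNA-1 lowered 4 and raised 0 in heavy polysomes, where 3.23% of all clusters fell, and lowered 9 and raised 1 in light polysomes, where 6.32% fell and 5.27% rose. The medians were 0.02 in heavy and -0.13 in light polysomes. This list was chosen with earlier results of these data known, so its counts and medians are descriptions. The deubiquitinase gene USP13 fell by 0.76 in heavy (adjusted p = 0.0413) and 1.16 in light polysomes (0.00104). The kinase gene PIM2 fell by 0.67 (0.00699) and CIP2A, an inhibitor of the phosphatase PP2A, by 0.44 (0.0342) in heavy polysomes, and CDK1 by 0.95 (0.000485) and CDK2 by 0.83 (0.00176) in light polysomes. The member that rose, TRIM32, a ubiquitin ligase, gained 0.62 in light polysomes (0.00873) and was named after its value was seen. With siRNA-2, 0.415% of all clusters passed in heavy and 0.41% in light polysomes. Of these 30 genes, 0 passed with siRNA-2 in either fraction by limma. An unadjusted p under 0.05 was found for 2 of them in heavy and 4 in light polysomes. USP13 differed by -0.82 in heavy polysomes with siRNA-2 without passing (adjusted p = 0.151).

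Of 24 listed cofactors that MYC proteins recruit, 21 were measured. For siRNA-1, 1 rose and 0 fell in heavy and 1 rose and 1 fell in light polysomes. Of all clusters, 8.91% passed in heavy and 11.6% in light polysomes with siRNA-1, and 0.415% and 0.41% with siRNA-2. MED1, a Mediator subunit, rose by 0.49 with siRNA-1 in heavy polysomes (adjusted p = 0.0263), and in light polysomes HCFC1, a chromatin cofactor, fell by 0.55 (0.0325) and CCNT1, the cyclin of the elongation factor P-TEFb, rose by 0.51 (0.0351). Of 13 measured of 17 SIN3 and NCoR corepressor parts, through which MXD proteins act, 0 passed with siRNA-1 in heavy polysomes (limma; 3 had an unadjusted p under 0.05, RBBP7 with the smallest, at -0.54 and an adjusted p of 0.108). In light polysomes the histone-binding gene RBBP7 fell by 0.67 (adjusted p = 0.00394) and the SIN3 subunit gene SAP30 by 0.63 (0.0144). With siRNA-2, 0 genes of either list passed in either fraction (limma; 3 cofactors and 1 corepressor part in each fraction had an unadjusted p under 0.05). The list genes of smallest p were HCFC1 (0.54, adjusted p = 0.222) and the scaffold gene SIN3A (0.38, adjusted p = 0.434) in heavy polysomes. In light polysomes they were the acetyltransferase gene CREBBP (0.40, adjusted p = 0.266) and ING2, a SIN3 complex gene (0.45, adjusted p = 0.238). The siRNA-1 medians were 0.05 in heavy and 0.03 in light polysomes for the cofactors and -0.09 and -0.11 for the corepressor parts. With siRNA-2 the medians of the 6 lists of over 10 genes lay between -0.05 and 0.14, and those of the 2 MLX targets were 0.67 in heavy and 0.82 in light polysomes.

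**Figure D4:**
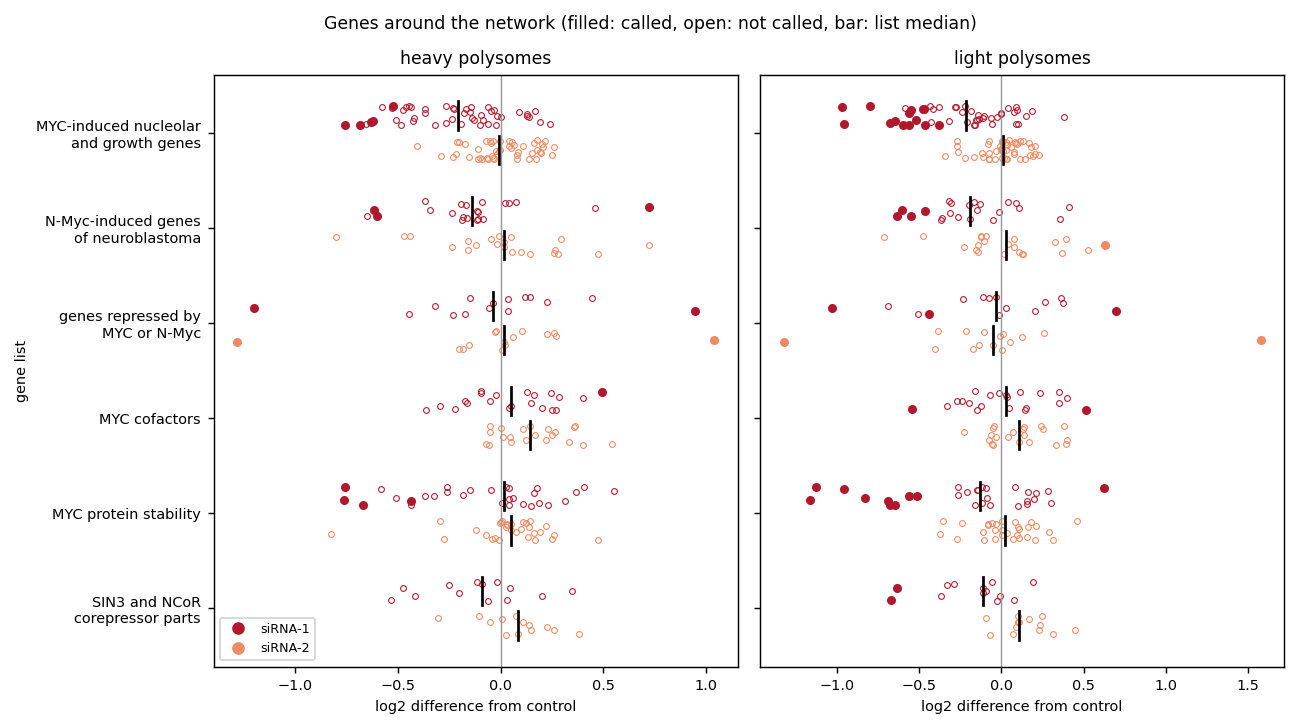
Difference from control on the log2 scale (x axis) of single genes (points, filled where called) in 6 lists around the network (y axis) for siRNA-1 and siRNA-2 in heavy (left) and light (right) polysomes, with list medians as bars. The siRNA-1 medians of the nucleolar and growth genes are -0.21 in both fractions, and those of siRNA-2 are -0.01 and 0.01.

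The neighbours of MYCN on chromosome 2 were either higher or not called. NBAS, which codes for a Golgi-to-ER transport protein and is often amplified together with MYCN, was 7.39, 7.60 and 7.40 with siRNA-1, 6.81, 6.97 and 6.92 with siRNA-2, and 6.71, 6.46, 6.64 and 6.88 with control in heavy polysomes. The siRNA-1 arrays were above all others. NBAS rose with siRNA-1 by 0.79 in heavy (adjusted p = 0.00194) and 0.62 in light polysomes (0.00398). The siRNA-2 differences were 0.23 (0.691) and 0.16 (0.756). DDX1, an RNA helicase gene between NBAS and MYCN, was 9.71, 10.14 and 10.08 with siRNA-1, 9.68, 9.84 and 10.05 with siRNA-2, and 9.46, 9.84, 10.05 and 10.15 with control in heavy polysomes, and the groups overlapped. Of 5 listed genes near MYCN 3 were measured. Against control, NBAS was the only one called, with siRNA-1 in each fraction. Of all clusters, 5.68% rose in heavy and 5.27% in light polysomes with siRNA-1.

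**Figure D5:**
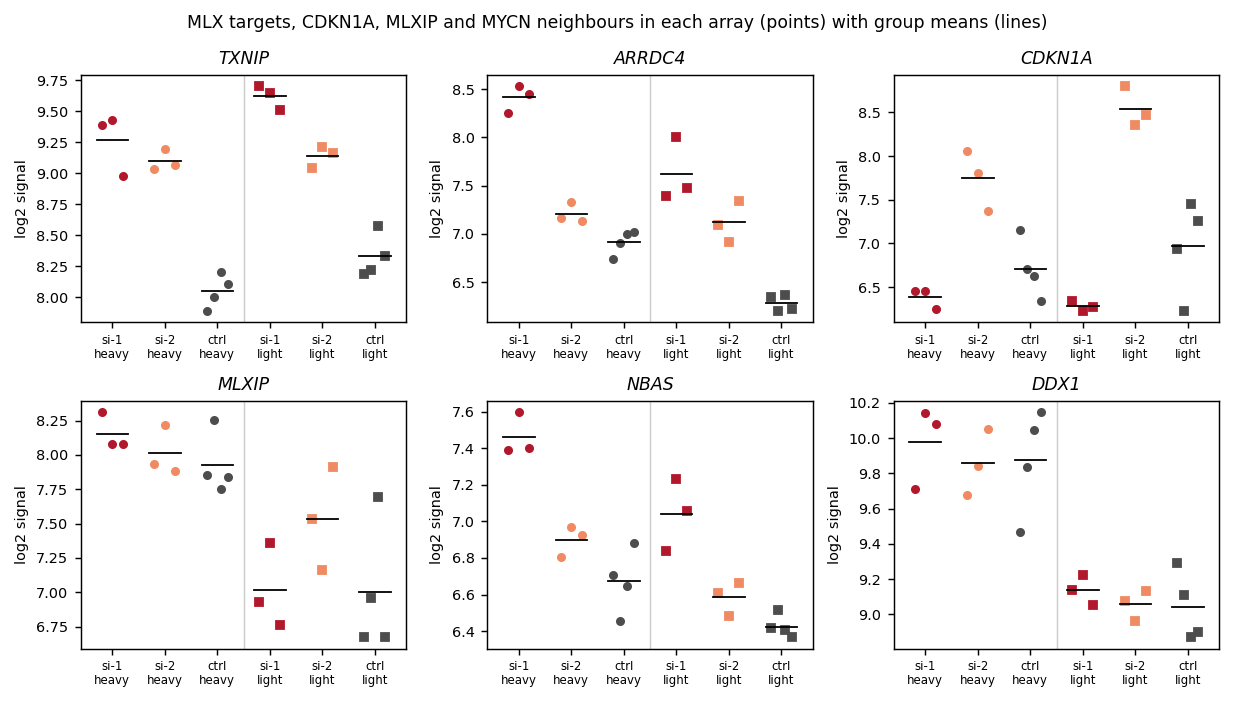
Log2 signal (y axis) of 6 genes around the network in every array (points, circles for heavy and squares for light polysomes) by group (x axis, si-1 and si-2 for the lncNB1 siRNAs, ctrl for control), with group means as lines and a separate y range per gene. TXNIP and ARRDC4 stand above control with both siRNAs in both fractions, NBAS with siRNA-1 and CDKN1A with siRNA-2.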

How the data were processed

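Heavy and light polysomal RNA of BE(2)-C cells was measured on 20 Clariom S arrays. The authors deposited log2 values made with RMA (background correction, quantile normalization and probe set summary) in the oligo package; R 3.5.3 and limma 3.38.3 are named in the submitters' processing notes. Whether the fractions were normalized together, and the genome build, are not given in the sources used here. Of 27189 probe sets, 5741 control and other sets were left out.

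Differences were fitted with limma 3.58.1 (lmFit, eBayes) in R 4.3.3 within the 10 heavy or 10 light arrays. Heavy against light was fitted on the 10 differences within transfections. P-values were adjusted over all 21448 clusters (Benjamini-Hochberg), and an adjusted p under 0.05 was a call. The number of arrays limits the precision. The code was tested on simulated data.

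The members and lists were chosen with earlier results of these data known, so counts per list are descriptions. The naming rule covered all members in every comparison. Values of some members that did not pass are not printed for every comparison. The rule also covered up to 4 called genes of largest change per list in each siRNA's comparison with control (if none, that of smallest p). It further covered the 5 clusters most correlated with MYCN. One list gene that the rule names is not reported here. Alternatives were another normalization, a filter on dim clusters, array weights, an intensity trend with a robust prior, a replicate block, a random transfection block, both siRNAs as 1 group, a threshold of 1.5-fold at an unadjusted p under 0.05, and leaving out each replicate. Heavy and light arrays of a transfection correlated in their deviations from the group means at -0.0553 to 0.226 over 10 pairs, 1 of them over 0.1. The promoter table was read with Python 3.11.15 and pandas 2.3.3.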

Additional observations from a re-analysis of the deposited data

Results flagged for a closer look

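In the 4 heavy control arrays, MXD1 of replicate 1 (7.23) stood below the others (7.47 to 7.50), with a gap of 0.884 of the group's whole range, over Dixon's critical value. It was 1 of 18 control groups tested, and chance gives about 1 in 20.

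The effects of the 2 siRNAs differed for MXD1 in heavy (siRNA-1 minus siRNA-2 1.14) and light polysomes (0.916), and for MGA in light polysomes (-0.541), by limma's test of the difference itself. The siRNA-1 replicate 1 arrays moved the MGA value, as given with the results, and the MXD1 values passed under all 18 alternatives run in each fraction.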

How the results depend on the processing

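Over 2218 member results by comparison and alternative, 2159 kept their side of the threshold, 43 calls were lost, 16 were gained and 0 turned round. The 2159 include 108 values called in neither setting that changed sign. MXD1 with siRNA-1 against control or siRNA-2 kept its call in both fractions throughout.

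Counts of members called changed as follows. With both siRNAs as 1 group, 0 passed in either fraction. Array weights gave 2 for siRNA-1 against control (MYCN added, -0.35, adjusted p = 0.0394) and 3 for siRNA-1 against siRNA-2 (MYCN and MXI1 added) in heavy polysomes. Without replicate 1 in every group, siRNA-1 against siRNA-2 gave 2 in heavy and 1 in light polysomes, siRNA-1 against control gave 1 and the mean of both siRNAs 0 in light polysomes. At 1.5-fold and an unadjusted p under 0.05, siRNA-1 against control and against siRNA-2 gave 1 each in light polysomes and heavy minus light in control cells 1. Leaving out 1 replicate at a time gave 1 to 2 for siRNA-1 against siRNA-2 in heavy polysomes, 1 to 3 for siRNA-1 against control and 1 to 2 for siRNA-1 against siRNA-2 in light polysomes, and for heavy minus light 2 to 5 with siRNA-1, 1 to 4 with siRNA-2 and 2 to 4 with control. MYCN in light polysomes also lost its call after repeated quantile normalization, as did MNT in control cells and MXD1 with siRNA-1 for heavy minus light. The cause was not tested, beyond fewer samples.

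Same-numbered arrays of a fraction correlated in their deviations at 0.0195 to 0.62 in heavy (6 of 8 pairs over 0.1) and -0.104 to 0.404 in light polysomes (4 of 8). The main fit within a fraction had no replicate block, so an effect shared by same-numbered arrays stayed in its spread. With a replicate block the members called stayed at 1 for siRNA-1 in heavy and 3 in light polysomes, and with siRNA-2 at 0, while 3501 clusters were called for siRNA-1 and 590 for siRNA-2 in heavy polysomes, against 1912 and 89 without it. With the heavy and light arrays not paired, heavy minus light gave 5 members with siRNA-1, 3 with siRNA-2 and 5 with control. Another cluster per gene could not be tried, since each member had 1. For genes outside the network, only counts over all clusters were taken from the alternatives, and the stability of single genes there was not examined.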
